A study of Homo sapiens with 12 samples.

Results

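MALAT1 is a long noncoding RNA that stays in the nucleus and gathers at nuclear speckles, the bodies that store splicing factors. The sites described here are the protein-protected sites on the plus strand of chromosome 11 whose midpoint lies in the hg19 span of MALAT1, chr11:65265233-65273940, which is 8708 nt long. The 6 replicate lists hold 251 such sites among 513381 sites in all, and the 3 merged lists hold 29 (ssRNase), 67 (dsRNase) and 25 (both nucleases together). MALAT1 was chosen with its site numbers and coverage in these lists known, so both, and the window fits made from the same site bases, are given as a description without a p.

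The lists come from protein interaction profile sequencing (PIP-seq) of HEK293T, a human embryonic kidney cell line, and all cells were cross-linked with 1% formaldehyde for 10 minutes. Lysate was digested with ssRNase (RNase ONE, which cuts unpaired RNA) or with dsRNase (RNase V1, which cuts paired RNA). In the footprint libraries protein was still present during digestion, and in the digestion controls it had been removed beforehand with 1% SDS and proteinase K. Each nuclease had 3 footprint libraries and 3 digestion controls, 12 libraries in all. A site is a stretch that the authors called as more protected in a footprint than in its control at a false discovery rate of 5%. The labels do not say that replicates came from separate cultures, so every p below measures only the spread between these libraries, which may be technical. No read counts were used, so how deeply any site was sequenced is unknown.

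The MALAT1 transcript is not polyadenylated in the usual way. RNase P cuts it ahead of a tRNA-like RNA, mascRNA, and the new 3' end is held in a triple helix in which U-rich motifs pair with a genomically encoded A-rich tract, a structure that protects the RNA from decay. The 3' end is therefore described apart.

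Positions below count from 1 at the first base of the hg19 span. A GENCODE v29 transcript of MALAT1 on GRCh38 is a single exon of the same length, 8708 nt, and the elements were located in it by position. Whether every base of the hg19 span matches that transcript was not checked. The U-rich and A-rich element lies at positions 8268 to 8355 (GRCh38 plus strand, chr11:65506029-65506116) and is followed directly by mascRNA at positions 8356 to 8413 (chr11:65506117-65506174, RefSeq boundaries). The element is shown because protection stops inside it, and mascRNA because no list protected it; both are written with T for U. Capitals mark runs of at least 4 T and the tract of 13 A, and mascRNA has no capitals.
U-rich and A-rich element: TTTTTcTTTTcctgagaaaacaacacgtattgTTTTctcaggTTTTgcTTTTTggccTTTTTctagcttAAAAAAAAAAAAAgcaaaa
mascRNA: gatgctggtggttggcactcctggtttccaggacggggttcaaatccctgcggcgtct

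RefSeq's promoter table (GRCh38.p14) lists 2 starts for MALAT1, and the second falls at position 1284 of the transcript. The sequence around it, chr11:65498995-65499094 on the plus strand, is shown because protection in every list begins after it. Lower case gives the 50 bases before that start, and capitals mark the 50 bases from it onward.
Second RefSeq start: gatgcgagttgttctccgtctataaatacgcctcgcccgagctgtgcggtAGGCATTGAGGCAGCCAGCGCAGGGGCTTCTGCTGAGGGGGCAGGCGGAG

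No list had a protected base in the first 1287 nt of the span, which make up 14.8% of it. The first protected position was 1288, 1289 and 1296 in the 3 ssRNase lists, against 1578, 1391 and 1391 in the 3 dsRNase lists. The earliest of these lies 4 nt after the second RefSeq start. The last protected position was 8622, 8286 and 8626 with ssRNase, against 8216, 8219 and 8303 with dsRNase. Protection in any list thus ran over 7339 nt, positions 1288 to 8626. Beyond the span, neither of the 5000 nt flanks held a plus-strand site in any replicate list, the nearest sites lying 52240 nt before it and 19124 nt after it. The opposite strand of the span held 0 sites in all 9 lists.

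**Figure D1:**
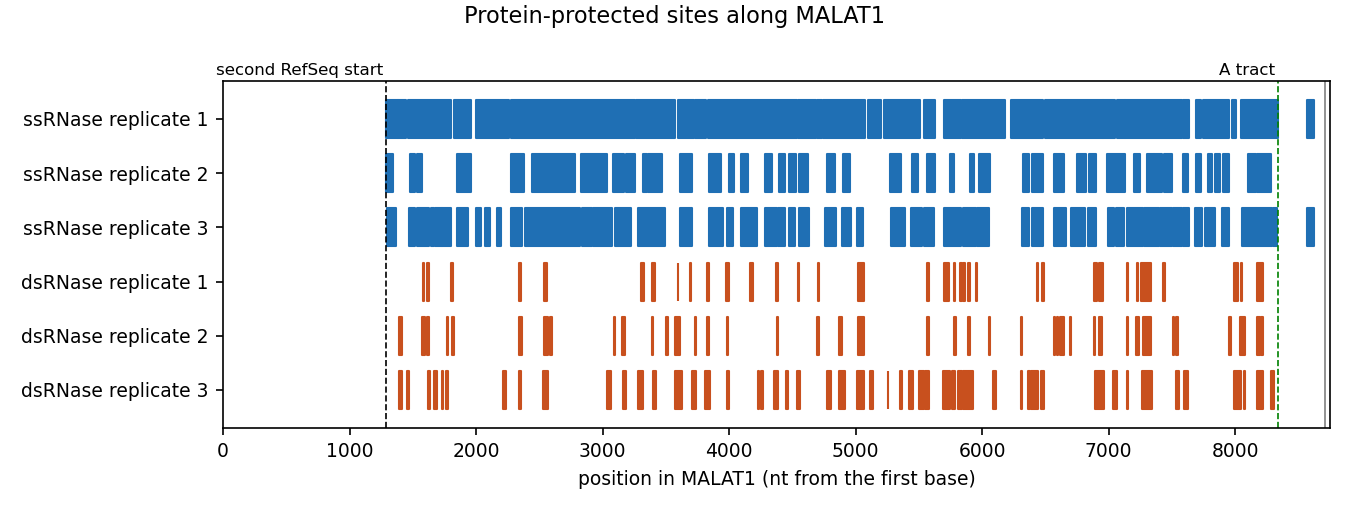
Protein-protected sites along MALAT1, one row per replicate list (blue, ssRNase; orange, dsRNase), against the position in nt from the first base of the span. Dashed lines mark the second RefSeq start at 1284 and the first base of the A tract at 8337; the first 1287 nt are empty in all 6 lists, and only 2 ssRNase lists have a site beyond the A tract.

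Both nucleases gave similar numbers of MALAT1 sites and very different amounts of protected RNA. MALAT1 had 30, 44 and 53 sites with ssRNase, against 34, 40 and 50 with dsRNase, so the numbers overlapped. Protected bases numbered 6550, 3236 and 4667 in the ssRNase lists, against 663, 729 and 1528 in the dsRNase lists. That is 55.3 ± 19.1% of the span with ssRNase, against 11.2 ± 5.53% with dsRNase (mean ± SD, n = 3 each), a 4.95-fold difference in means, and every ssRNase list lay above every dsRNase list. ssRNase replicate 1 protected 75.2% of the span, and dsRNase replicate 3 protected 17.5%, the highest values of their groups.

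The whole lists differ far more in size than the MALAT1 sites do. They hold 209922, 57481 and 172079 sites for ssRNase, against 23925, 28413 and 21561 for dsRNase. Per 1000000 site bases of its list, MALAT1 took 643, 1110 and 576 bases in the ssRNase lists, against 805, 745 and 1913 bases in the dsRNase lists. On this scale the nucleases overlapped, and the highest value of each came from ssRNase replicate 2 and dsRNase replicate 3. In windows as long as MALAT1, ranked by site bases, the MALAT1 window stood at places 3, 7 and 3 of 57878, 28607 and 54692 windows with a site in the ssRNase lists. In the dsRNase lists it stood at places 44, 41 and 13 of 13096, 14956 and 11499 windows. The grid of windows was laid so that MALAT1 fills a single window exactly. Other transcripts can be split between windows, so these places favour MALAT1.

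A limma fit over all such windows compared these shares, as log2(site bases per 1000000 site bases + 20), ssRNase minus dsRNase. The MALAT1 window differed by -0.48 (SE 0.45). It was not past the threshold, a Benjamini-Hochberg adjusted p of 0.05, while 33.7% of the 32856 windows tested were past it (called), 26.5% higher with ssRNase and 7.15% higher with dsRNase. Without dsRNase replicate 3 the difference was -0.06. Without division by the size of the list, the MALAT1 window was 2.33 higher with ssRNase (SE 0.45) and past the threshold, where 65.2% of windows were called higher with ssRNase and 0.387% higher with dsRNase. The median over all windows tested moved between these scales as well, at 0.43 with division and 2.06 without it. Shares of a list do not correct for the depth of its libraries.

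Site length set the nucleases apart on MALAT1. Median site length was 140, 60 and 81 nt in the ssRNase lists, against 15.5, 16.5 and 27.5 nt in the dsRNase lists. Every ssRNase median lay above every dsRNase median, with means of 93.7 ± 41.5 and 19.8 ± 6.66 nt (SD, n = 3 each), and the exact two-sided permutation test gave p = 0.1, the smallest that 3 lists against 3 allow. Length is tied to site number and protected bases, both known when MALAT1 was chosen. Nothing is therefore read from this p. The longest ssRNase site spanned positions 2277 to 3258 (982 nt, hg19 65267509 to 65268490) in replicate 1, and those of replicates 2 and 3 lay inside it at 2443 to 2780 (338 nt) and 2387 to 2823 (437 nt). The longest dsRNase sites lay elsewhere, at 7260 to 7332 (73 nt) and 7269 to 7333 (65 nt) in replicates 1 and 2 and at 5850 to 5931 (82 nt) in replicate 3.

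Set against the other sites of its own list, MALAT1 moved in opposite directions for the nucleases. Whole-list medians were 43, 44 and 42 nt for ssRNase, against 33, 33 and 34 nt for dsRNase. Sites longer than their list's median numbered 28 of 30, 32 of 44 and 48 of 53 on MALAT1 with ssRNase, against 4 of 34, 4 of 40 and 17 of 50 with dsRNase. All 3 ssRNase lists thus had longer sites on MALAT1 than elsewhere and all 3 dsRNase lists shorter ones. Scores moved with length: by the authors' score, which is of unstated scale and ranks sites within a list, the median MALAT1 site stood at percentile 99.1, 83.3 and 95.5 of its list with ssRNase and at 44.5, 69.4 and 73.5 with dsRNase. Against sites within 5 percentile points of the same score, the difference in median length was 36.0 ± 35.3 nt with ssRNase, against -14.2 ± 5.13 nt with dsRNase (mean ± SD, n = 3 each).

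**Figure D2:**
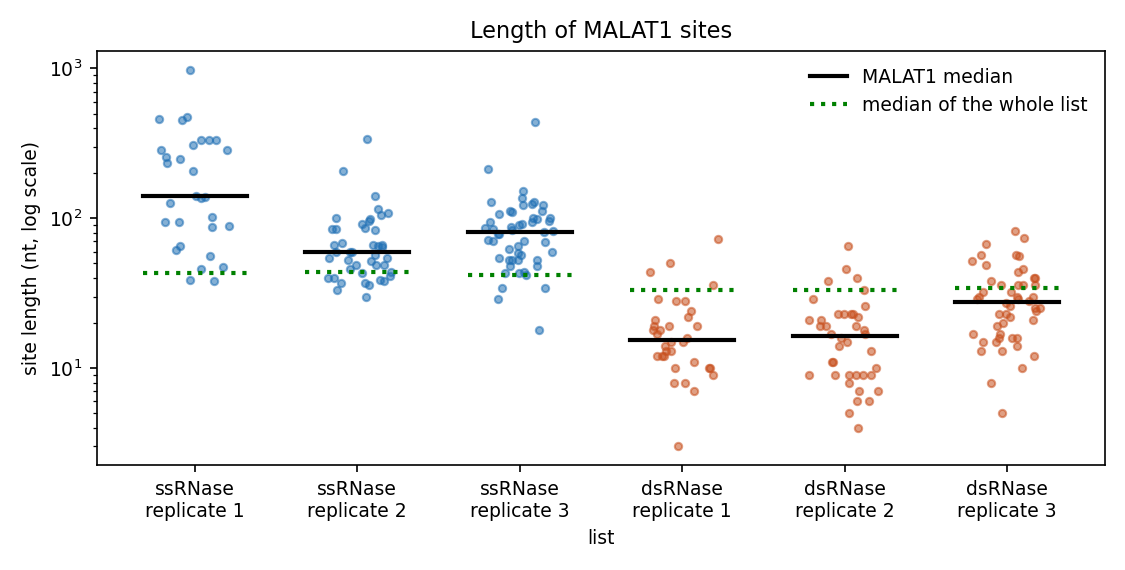
Length in nt, on a log scale, of each MALAT1 site (points) by replicate list, ssRNase in blue and dsRNase in orange, with the median of the MALAT1 sites (solid line) and of the whole list (dotted line). The solid lines sit above the dotted ones in the 3 ssRNase lists (140, 60 and 81 nt) and below them in the 3 dsRNase lists (15.5, 16.5 and 27.5 nt).

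Along the transcript, the stretch most covered by ssRNase sites was among the least covered by dsRNase sites. At positions 2001 to 3000 ssRNase protected 980, 609 and 796 nt, the highest mean of any stretch (795 ± 186 nt, SD, n = 3). There dsRNase protected 43, 64 and 78 nt, its lowest mean after the empty first stretch (61.7 ± 17.6 nt). At positions 5001 to 6000 ssRNase protected 852, 308 and 618 nt (593 ± 273 nt), and dsRNase protected 168, 94 and 393 nt, its highest mean (218 ± 156 nt). Even so, ssRNase protected more bases than dsRNase in every stretch from 1001 onward when means are compared, and the lists of the 2 nucleases overlapped only at 5001 to 6000, where dsRNase replicate 3 passed ssRNase replicate 2.

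The other dsRNase means lay between these, while 2 ssRNase means lay below that of 5001 to 6000. After its highest mean, ssRNase ran down through 7001 to 8000 (735 ± 178 nt), 3001 to 4000 (704 ± 221 nt), 4001 to 5000 (660 ± 282 nt) 6001 to 7000 (606 ± 279 nt) and 5001 to 6000, to 439 ± 195 nt at 1001 to 2000 and 286 ± 93.1 nt in the shorter last stretch of 708 nt. With dsRNase the means ran down through 3001 to 4000 (161 ± 94.7 nt), 7001 to 8000 (139 ± 33.7 nt), 6001 to 7000 (120 ± 69.2 nt), 4001 to 5000 (98.7 ± 64.5 nt) and the last stretch (93.0 ± 27.0 nt), to 82.3 ± 37.2 nt at 1001 to 2000. In both orders the values of neighbouring stretches overlapped between lists, so the order is not firm. The orders are also by nt and not by percent of the stretch. The last stretch is shorter, and 1001 to 2000 takes in bases up to 1287 that no list protected. Each stretch from 1001 onward held bases protected in all 3 ssRNase lists, and each also held bases protected in all 3 dsRNase lists.

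**Figure D3:**
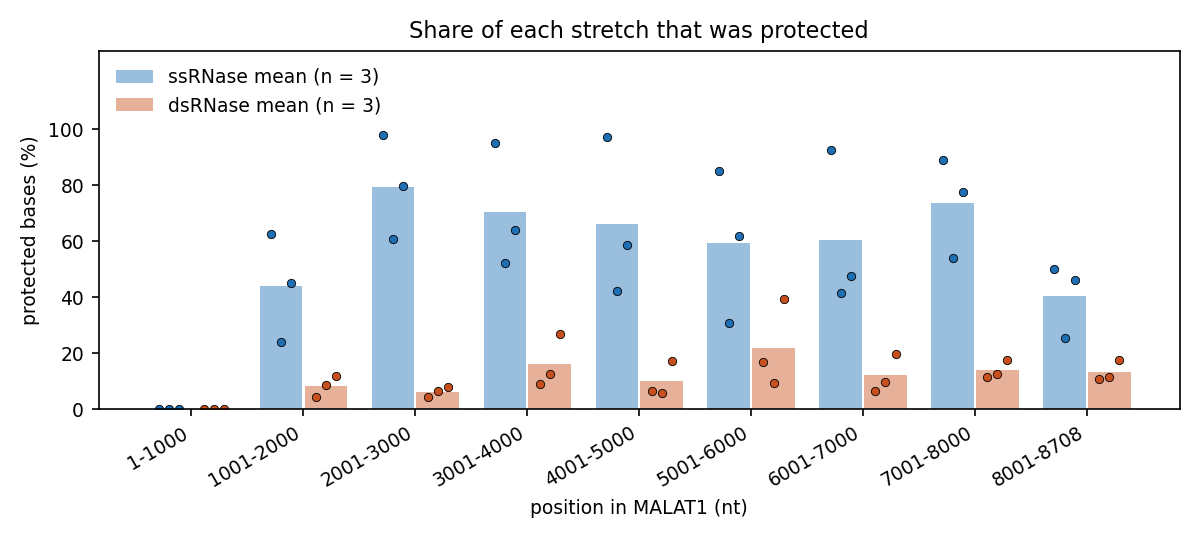
Percent of the bases of each 1000 nt stretch of MALAT1 (708 nt for the last) inside a site, for ssRNase (blue) and dsRNase (orange); bars are means of 3 lists and points are the lists in replicate order. Both nucleases are at 0 in the first stretch, ssRNase is highest at 2001 to 3000 and dsRNase at 5001 to 6000.

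The limma fit in 1000 nt windows, in which a whole site counts in the window of its midpoint, tested 8 of the 9 windows that cover MALAT1, since the first has no site. One window was past the threshold, with dsRNase higher, where 7.78% of the 49608 windows tested were called in that direction, 18.6% in the other and 26.4% in either. It was the window from position 8001, at the 3' end. It held 33.6, 61.7 and 40.2 bases per 1000000 site bases with ssRNase, against 99.6, 81.7 and 164 bases with dsRNase, without overlap (difference -1.03, SE 0.29). It lay next to the threshold and fell short of it on leaving out any single list other than dsRNase replicate 2. Without division by the size of the list the direction turned, with ssRNase higher by 1.34. With a site required from each nuclease, 1388 of 33094 windows were called. Of these, 22 were higher with ssRNase, and 0 lay on MALAT1. Since these are the site bases by which MALAT1 was chosen, nothing is read from the calls.

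Positions 2001 to 3000 gave the largest difference towards ssRNase, 0.86 (SE 0.32), and positions 5001 to 6000 the largest towards dsRNase, -1.32 (SE 0.54). Neither was past the threshold. The other 5 windows lay between -0.71 and -0.01 and were not past it either. The median over all 1000 nt windows tested was 0.28. Without division by the size of the list, 7 of the 8 windows were called higher with ssRNase, and the window from 5001 turned to 1.23 without being called, where 57% of all windows were called higher with ssRNase, 0.828% were called higher with dsRNase, and the median was 1.64.

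Protected bases of the dsRNase lists lay on average further towards the 3' end. The mean position was 4803, 4832 and 4853 in the ssRNase lists, against 5450, 5122 and 5171 in the dsRNase lists, so the groups did not overlap. The difference of means was -418 nt (4829 ± 24.7 with ssRNase, against 5248 ± 177 with dsRNase, mean ± SD, n = 3 each), and the exact two-sided permutation test gave its smallest p, 0.1.

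The 3' end, taken as the last 500 nt (positions 8209 to 8708, 5.74% of the span), was less covered than the rest of the span in every list. Of these 500 nt, mascRNA takes 58 nt and the part after it 295 nt, neither of which is in the mature MALAT1. The 59 nt and the 88 nt element ahead of mascRNA had 59, 59 and 59 nt and 69, 19 and 56 nt protected with ssRNase. With dsRNase they had 8, 11 and 8 nt and 0, 0 and 16 nt. The lower coverage therefore describes the last 500 nt as drawn, not the mature 3' end. ssRNase protected 184, 78 and 174 nt there, against 8, 11 and 24 nt with dsRNase. Coverage was 36.8%, 15.6% and 34.8% at the 3' end with ssRNase, where the rest of the span had 77.6%, 38.5% and 54.7%. With dsRNase it was 1.60%, 2.20% and 4.80%, where the rest of the span had 7.98%, 8.75% and 18.3%. The rest of the span includes the empty 5' part, which lowers these values. From the second RefSeq start to position 8208, ssRNase protected 6366, 3158 and 4493 of 6925 nt, against 655, 718 and 1504 nt with dsRNase. As a share of each list's protected MALAT1 bases, the 3' end took 2.81%, 2.41% and 3.73% with ssRNase, against 1.21%, 1.51% and 1.57% with dsRNase. The shares did not overlap (2.98 ± 0.676% and 1.43 ± 0.195%, SD, n = 3 each), and the exact two-sided permutation test gave its smallest p, 0.1. This difference of 1.55 percentage points was 0.71 when the last 250 nt were taken in place of the last 500, and turned to -1.30 with the last 1000 nt.

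Within the 3' end, protection covered the bases ahead of the triple-helix element, reached into its U-rich part and stopped at the A tract. The 59 nt just ahead of the element were protected throughout in all 3 ssRNase lists, against 8, 11 and 8 nt in the dsRNase lists. The U-rich part, 69 nt long, had 69, 19 and 56 protected nt with ssRNase, against 0, 0 and 16 nt with dsRNase. The A tract of 13 nt and the 58 nt of mascRNA had 0 protected bases in all 6 lists. A site of ssRNase replicate 1, at positions 8050 to 8336, ended on the last base before the A tract printed above; it was also the longest site touching the 3' end.

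Replicates 2 and 3 of ssRNase reached less far into the U-rich part. The site of replicate 2 ran over 8172 to 8286, and replicate 3 had sites at 8168 to 8289 and 8296 to 8329. The longest dsRNase site touching the 3' end was 8173 to 8216, with the same ends in replicates 1 and 3, and it stopped ahead of the element. Only dsRNase replicate 3 had a site within the element, 8288 to 8303, which fell partly in the gap between the 2 sites of ssRNase replicate 3.

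Past mascRNA, ssRNase replicates 1 and 3 each had a site, at 8567 to 8622 and 8568 to 8626. These lie beyond the point where RNase P separates MALAT1 from mascRNA, in the part of the annotated transcript that is not in the mature RNA. ssRNase replicate 2 and the 3 dsRNase lists had no protected base there. The stretch without protection in any list from 8337 to 8566 (230 nt) was the longest after the empty 5' part, and the next longest was the last 82 nt of the span.

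**Figure D4:**
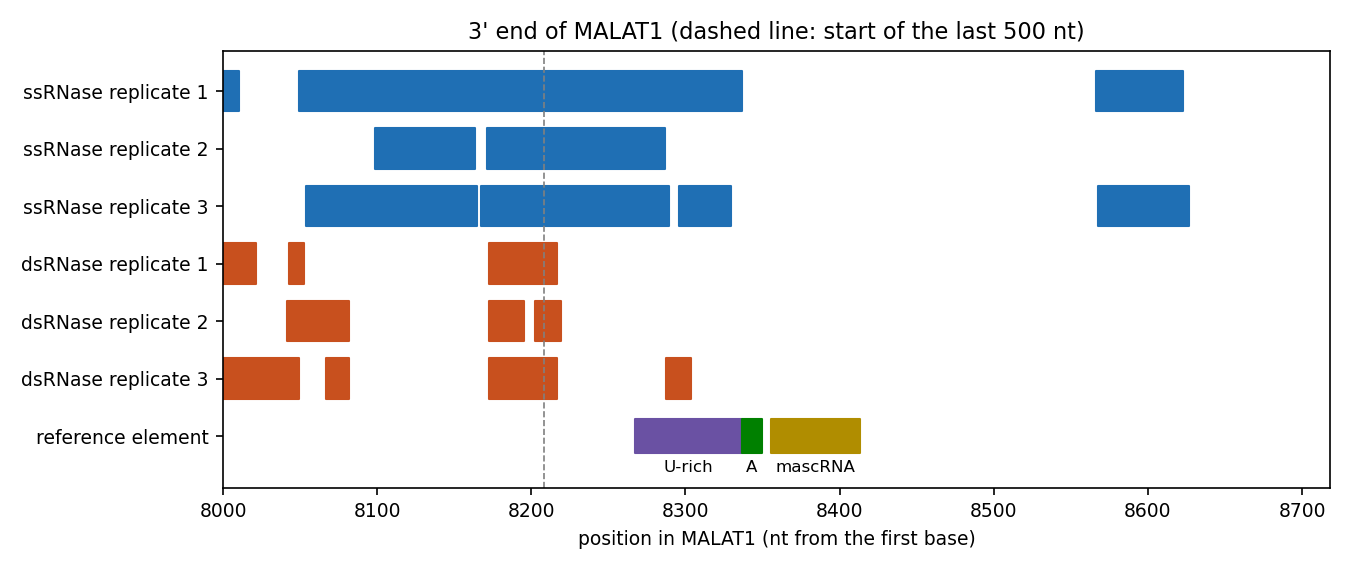
Sites at the 3' end of MALAT1 by replicate list (blue, ssRNase; orange, dsRNase), with the U-rich part, the A tract and mascRNA below, against the position in nt. All 3 ssRNase lists enter the U-rich part, none of the 6 lists covers the A tract or mascRNA, and 2 ssRNase lists have a site beyond mascRNA.

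Lists of the same nuclease shared more protected bases than the coverage of the second list alone would give. Of dsRNase replicate 1 bases, 55.5% lay in sites of replicate 2 and 77.7% in sites of replicate 3, where those lists covered 9.93% and 20.8% of the 7339 nt. Of dsRNase replicate 3 bases, 33.7% lay in sites of replicate 1 and 31.3% in sites of replicate 2, where those covered 9.03% and 9.93%. Of ssRNase replicate 2 bases, 99.5% lay in sites of replicate 1 and 93.2% in sites of replicate 3, where those covered 89.2% and 63.6%. Of ssRNase replicate 3 bases, 64.6% lay in sites of replicate 2, which covered 44.1%. The excess was smallest for ssRNase replicate 1. Of its bases, 49.2% lay in sites of replicate 2 (44.1% covered) and 70.6% in sites of replicate 3 (63.6% covered).

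Between the nucleases the sharing followed coverage more closely in most pairs of lists. The dsRNase lists had 91.9%, 90.1% and 89.4% of their bases in sites of ssRNase replicate 1, against 89.2% covered. In sites of ssRNase replicate 3 they had 76.2%, 64.5% and 64.0%, against 63.6% covered. In sites of ssRNase replicate 2, the list with the fewest protected bases, they had 35.1%, 37.2% and 31.2%, all below the 44.1% covered. With lists pooled, 91.0% of the bases protected by any dsRNase list were protected by some ssRNase list, where ssRNase lists covered 90.0% of the 7339 nt. Conversely, 25.7% of ssRNase-protected bases were protected by some dsRNase list, where dsRNase lists covered 25.5%. Without dsRNase replicate 3 the 25.7% became 14.0%, and the coverage fell as well, since replicates 1 and 2 singly covered 9.03% and 9.93%.

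**Figure D5:**
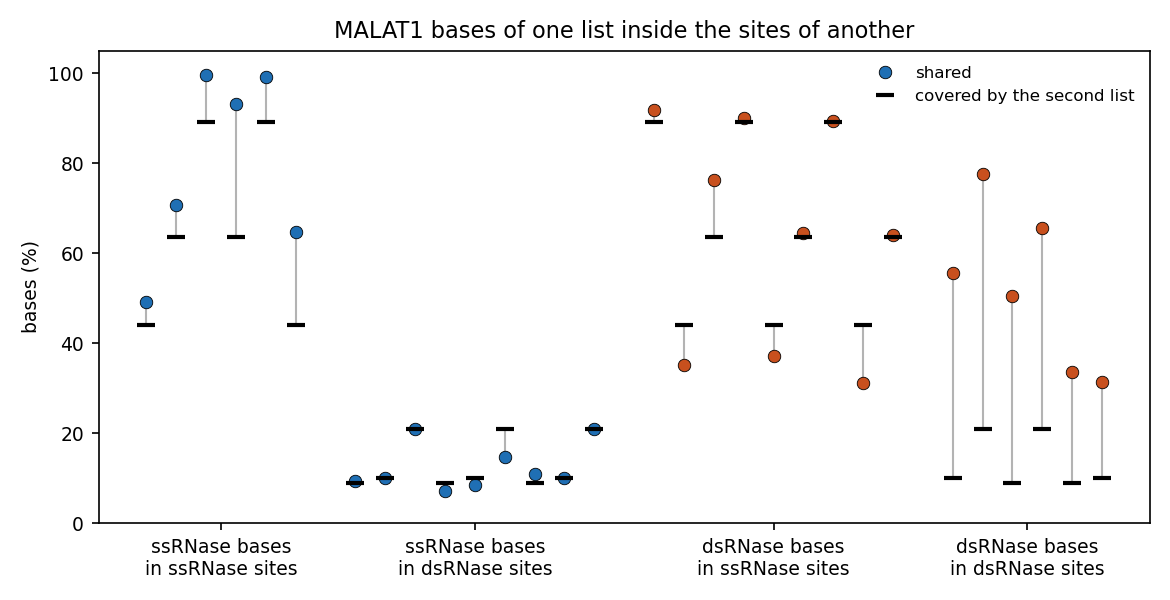
Percent of one list's protected MALAT1 bases that lie in the sites of a second list (points; blue where the first list is ssRNase, orange where dsRNase), with the percent of positions 1288 to 8626 that the second list covers (bars). Points stand above their bars for pairs of lists of the same nuclease and near them for most pairs of different nucleases. Bases of the dsRNase lists stand below the bar in the sites of ssRNase replicate 2, and those of dsRNase replicate 1 above it in the sites of ssRNase replicate 3.

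Protection recurred at defined places. All 3 ssRNase lists protected 3012 nt, 45.6% of the 6603 nt protected by at least 1 of them, and all 3 dsRNase lists protected 309 nt, 16.5% of 1868 nt. The longest ssRNase stretch shared by its 3 lists ran over 2443 to 2780 (338 nt, hg19 65267675 to 65268012), followed by 2922 to 3036 and 8172 to 8286, both 115 nt. The last of these leads into the triple-helix element. The longest dsRNase stretch shared by its 3 lists ran over 7269 to 7332 (64 nt, hg19 65272501 to 65272564), followed by 5020 to 5065 (46 nt) and 2538 to 2561 (24 nt).

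Only 131 nt, in 8 stretches, were protected in all 6 lists. The longest were 7303 to 7332 (30 nt, hg19 65272535 to 65272564), 2538 to 2561 (24 nt) and 8173 to 8195 (23 nt, hg19 65273405 to 65273427). The third of these lies just ahead of the 3' end region, and a dsRNase site began at 8173 in all 3 dsRNase lists. Of the 309 nt protected in all 3 dsRNase lists, 131 nt were protected in 3 ssRNase lists, 116 nt in 2, 50 nt in 1 and 12 nt in none. The 131 nt are 42.4% of the 309 nt, while all 3 ssRNase lists together protected 41.0% of positions 1288 to 8626. The amount shared by all 6 lists was thus near what coverage alone would give. The 12 nt in no ssRNase list were 8043 to 8049 and 3825 to 3829.

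In the authors' merged lists, MALAT1 sites more often drew on every replicate list than merged sites in general. On MALAT1, 22 of 29 merged ssRNase sites (75.9%; 13.4% of the whole list) and 17 of 67 merged dsRNase sites (25.4%; 10.6% of the whole list) came from all 3 lists. In the list merged over both nucleases, 12 of 25 MALAT1 sites (48.0%) came from all 6 lists, against 0.696% of that whole list. MALAT1 was chosen from these sites, so these shares are a description. Merged ssRNase sites on MALAT1 were longer than those of their whole list, with medians of 169 and 44 nt, and merged dsRNase sites were shorter, with medians of 23 and 35 nt.

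The 12 merged sites from all 6 lists ran from 1453 to 1800 at the 5' side to 7973 to 8336 at the 3' side. The longest were 2277 to 3258 (982 nt), 3267 to 4061 (795 nt) and 6499 to 7127 (629 nt). Between them lay 4065 to 4535, 4741 to 5075, 5225 to 5631, 5694 to 5840, 5845 to 6177, 6231 to 6487 and 7130 to 7580. The one at 7973 to 8336 (hg19 65273205 to 65273568) stopped at the base before the A tract. A merged site joins sites of several lists, so it need not hold a base protected in all 6. The stretches 1001 to 2000, 4001 to 5000 and 6001 to 7000 held 0 such bases. Of the 67 merged dsRNase sites, 65 overlapped a merged ssRNase site by at least 1 nt (97.0%, exact 95% interval 89.6 to 99.6%, for counting error only), and 53 lay wholly inside one. The ssRNase lists covered 90.0% of the bases of the protected part, and a site of several nt touches a covered base more readily than a single base does. The share of sites expected from coverage alone was not computed, so no excess is read from the 97.0%.

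By a likeness over the 6 lists (Euclidean distance between log2 values of windows as long as MALAT1), 3 windows came nearest. They were a plus-strand window of the unplaced sequence Un_gl000220 at 103269 to 111976 (distance 0.95) and 2 windows of the same chromosome and strand as MALAT1. That pair lay at chr11:65186861-65195568 (distance 1.04) and chr11:65204277-65212984 (distance 1.13). No gene names are given for them, since the annotation at hand is of another build.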

How the data were processed

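Protected sites were compared between ssRNase and dsRNase PIP-seq of HEK293T cells. Per the submitters' processing notes, cutadapt 0.9.5, TopHat2 2.0.9 and build hg19 were used; per the labels' protocols, a duplex-specific nuclease was used to normalise the libraries, which lowers abundant sequences. The deposited lists are CSAR calls at a false discovery rate of 5%, per the labels, and each of the 6 replicate lists sets a footprint against its control. The authors merged replicate lists into 3 further lists. Each site carries a score from the authors, of unstated scale, used only for ranks within its list. The handling of multi-mapping reads was not given in the sources used here. Columns left unused numbered 0.

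Positions were read as 1-based and inclusive. Sites were assigned by midpoint and turned into base masks. Single values per list were compared by a two-sided exact permutation test (scipy 1.17.1), whose smallest p is 0.1. Windows were fitted with limma 3.58.1 in R 4.3.3 (lmFit, eBayes) on log2(site bases per 1000000 + 20), for windows with a site in at least 3 of 6 lists, with Benjamini-Hochberg adjusted p of 0.05 as threshold. The pseudocount shrinks differences of windows with few site bases. On simulated data the masks matched a base-by-base count, and the window test recovered sizes but called few changed windows. The simulation drew random (Poisson) site numbers around a mean shared by the lists, with every site at its list's median length. Its call rate therefore need not hold for these data. A missing call is not read as no difference.

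The A tract was the run of at least 8 A before mascRNA, and the U-rich part began at the first run of at least 5 U in the 120 nt ahead of it. Named items were the longest site per list, the 3 longest stretches per class, merged sites from all 6 lists, the 9 windows of 1000 nt, sites touching the last 500 nt and the 3 nearest windows. MALAT1, these rules and the tests were chosen with earlier results of these data known. Other nuclear RNAs and speckle protein genes were not analysed here, for want of an hg19 annotation. Alternatives covered score, assignment, 3' end length, pseudocount, scaling, filter, block and left-out lists. Python 3.11.15, numpy 2.4.6, pandas 2.3.3 and matplotlib 3.10.9 were used.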

Additional observations from a re-analysis of the deposited data

Results flagged for a closer look

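The median length of MALAT1 sites minus the median of their list was 97, 16 and 39 nt in the ssRNase lists (mean 50.7 nt), against -17.5, -16.5 and -6.5 nt in the dsRNase lists (mean -13.5 nt). It stands out because all 3 ssRNase lists moved one way and all 3 dsRNase lists the other. This difference between the nucleases was not tested.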

How the results depend on the processing

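Against sites of like score, an alternative chosen after seeing the data, both length differences kept their direction. The difference in 3' end share was 0.71 percentage points for the last 250 nt (exact permutation p = 0.4) and reversed to -1.30 for the last 1000 nt (exact permutation p = 0.4); leaving out 1 list gave 1.18 to 1.84. Leaving out 1 list gave -481 to -317 nt for mean position, 50.7 to 90.7 nt for median site length, 45.4% to 64.4% for ssRNase coverage and 7.99% to 13.0% for dsRNase coverage. The share of ssRNase bases also protected by dsRNase was 10.3% when 2 lists of each nuclease were required and 4.35% when 3 were, by construction, and 14.0% to 25.7% with 1 list left out, lowest without dsRNase replicate 3. The 4.35% was near coverage, since all 3 dsRNase lists together protected 4.21% of positions 1288 to 8626. Without division by list size, the MALAT1 window reversed to 2.33 and the 1000 nt windows from 1001, 3001, 4001, 6001, 7001 and 8001 reversed to 2.14, 1.87, 2.59, 2.29, 2.33 and 1.34; that from 5001 also turned direction, to 1.23, but was not called on either scale. Other settings left the MALAT1 window between -0.77 and -0.06, uncalled. Calls among windows of MALAT1 length, 11061 as reported, numbered 7213 with pseudocount 100, 21555 without division and 781 with a site required from each nuclease. Calls among 1000 nt windows, 13084 as reported, numbered 24134 with pseudocount 5, 6639 with pseudocount 100, 28688 without division and 1388 with a site from each nuclease. With 1 list left out these counts ran from 57 to 10292 and from 109 to 8674, lowest when an ssRNase list was missing. With 2 ssRNase lists left, a window needs a dsRNase site to meet the filter of 3 lists. The windows tested then numbered 16644 to 20385 and 20127 to 27602, and at most 2 were called higher with ssRNase. Whether the filter alone accounts for the lower counts was not tested. MALAT1 windows of 1000 nt past the threshold, 1 as reported, numbered 0 with pseudocount 100, without a filter and with a site from each nuclease, 7 without division, and 0 to 2 with 1 list left out. With the better-scoring 50% of sites the called window was that from 2001 (1.17) and not that from 8001. Same-numbered lists of both nucleases did not deviate together (r 0.02, -0.06 and -0.04), and differently numbered ones gave r from -0.10 to 0.09. With 3 lists per nuclease this cannot settle whether same-numbered libraries were prepared together. With the replicate number as a block, limma called 0 windows of MALAT1 length (11735 at an unadjusted p below 0.05), 161 windows of 1000 nt and 0 of those on MALAT1. The MALAT1 value stayed at -0.48. The exact sign-flip test gave p = 0.25 for each of the 3 within-transcript differences, the smallest p that 3 pairs allow. Read depth is unknown, so a stretch without a site cannot be told apart from one with too few reads.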
